A study of Homo sapiens with 30 samples.

Results

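The transcripts of 40 genes for the heat shock proteins and chaperonins of the cytosol were followed in the multiple myeloma lines OPM2 and H929. The cells, both of human origin, had been given the solvent DMSO or 100 nM dBRD9-A 24 h earlier. dBRD9-A is a compound that leads to the degradation of BRD9, a bromodomain protein that is part of non-canonical BAF, one of the complexes that remodel chromatin. The 40 genes were taken by symbol from a list and comprise HSP90, its co-chaperones, HSP70 and HSP110, BAG exchange factors, J-domain proteins, a small heat shock protein, heat shock factors and the subunits of the chaperonin TRiC and of prefoldin. They are 40 of 25680 gene symbols, and 38 of them were among the 16408 genes that passed the filter on low counts. The 4 groups of 3 libraries were OPM2 with DMSO, OPM2 with dBRD9-A, H929 with DMSO and H929 with dBRD9-A, all grown in the same serum-supplemented medium, and 18 further samples of the series were not analysed here. Separate cultures are not named in the labels, so the p-values rest on a spread between libraries that may be technical.

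Cytosolic chaperones bind proteins that are not yet folded or have lost their fold. HSP70 takes unfolded chains from J-domain proteins (HSP40), is recharged by exchange factors such as BAG proteins and HSP110, and can pass its clients to HSP90 through the adaptor STIP1. TRiC is a ring chaperonin that folds actin and tubulin, and prefoldin delivers chains to it. The transcription factor HSF1 drives many of these genes under stress. Myeloma cells make and secrete large amounts of antibody protein, and chaperones and the proteasome have long been studied in them as points of vulnerability.

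Library totals were 42895389 to 76600945 counts in 11 libraries and 24524193 in OPM2 dBRD9-A replicate 2. That library stood apart from its group mates. Deviations were taken from the mean of the other libraries of the same group. The SD of its log2 deviation was 0.77 over 7845 genes, against 0.36 and 0.43 in its group mates and 0.099 to 0.23 in the other groups. Its deviations followed transcript GC content (Spearman -0.70 across genes). In its group mates the coefficients were 0.64 and 0.71, but replicate 2 is part of the mean they were set against. Their coefficients and SDs are therefore not independent of it. Deviations followed GC content in other libraries too, with coefficients of -0.64 and 0.66 in H929 dBRD9-A replicates 1 and 2 and -0.49 to 0.43 in the remaining 7. All 9 plasma cell markers reached 10 CPM (counts scaled to the library total and by TMM factors) in every library. Their summed level was 11760 to 14120 CPM in OPM2 with DMSO, 6919 to 7941 CPM in OPM2 with dBRD9-A, 15870 to 17230 CPM in H929 with DMSO and 9511 to 10820 CPM in H929 with dBRD9-A. Most of this shift was in IGJ, the antibody joining chain, with means with DMSO and dBRD9-A of 7146 and 2436 CPM in OPM2 and 9642 and 4390 CPM in H929. In the same order, IRF4 had means of 1830 and 1190 CPM in OPM2 and 1292 and 785 CPM in H929. MZB1 had means of 203.5 and 68.2 CPM in OPM2 and 698.8 and 541.5 CPM in H929. XBP1 had means of 1476 and 1756 CPM in OPM2 and 2300 and 2162 CPM in H929. The means of SDC1, TNFRSF17 and PRDM1 were lower with dBRD9-A in both lines, and those of CD38 and POU2AF1 higher. SDC1 ran from 261 to 1219 CPM over the 12 libraries, so a lower mean may rest on a single library. The part of these markers in the results was not tested. Of the markers of T and NK, myeloid, erythroid, stromal and epithelial cells, none reached 1 CPM in every library. The summed level of the 5 T and NK cell markers was 0.324 to 0.926 CPM in OPM2 libraries and, almost all of it CD3E, 24.4 to 26.4 CPM in H929 with DMSO and 37.5 to 39.8 CPM with dBRD9-A. CD3D, CD3G and CD8A were at most 0.104 CPM in any library, and KRT18 carried most of the stromal and epithelial sum, which was 6.36 to 8.19 CPM in H929 with DMSO and 10.9 to 19.2 CPM with dBRD9-A. The myeloid sum was 1.62 to 4.29 and 5.20 to 11.1 CPM there. The erythroid sum, nearly all HBB, was 5.75 to 6.45 CPM in OPM2 with DMSO and 3.03 to 3.33 CPM with dBRD9-A, and at most 0.286 CPM in H929. The part of these marker lists in the results was not tested. The BRD9 transcript gave a log2 fold change of -0.23 ± 0.13 (SE, adjusted p = 0.241) in OPM2 and -0.46 ± 0.13 (SE, adjusted p = 0.0391) in H929, which does not measure a loss of the protein. In bulk samples, fewer cells of a type and less RNA per cell cannot be told apart.

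Heat shock factors bind heat shock elements, inverted repeats of GAA. Promoter windows of 300 bases, from 250 before to 50 after each start site in RefSeq (GRCh38.p14, another build than the hg19 of the deposited counts), were listed for 33 of the 40 genes. The element was searched as 3 units, GAANNTTCNNGAA or its other strand TTCNNGAANNTTC, and as 2 units, GAANNTTC or TTCNNGAA, each its own reverse complement and contained in the 3-unit form. The 3-unit form was present in 0.49% of all 35116 promoters and in 6 of the 45 promoters of these genes, those of HSP90AA1, HSP90AB1, HSPA8, DNAJA1, DNAJB6 and CHORDC1. The 2-unit form was present in 13.5% of all promoters and in 19 of the 45. The E-box CACGTG, a site for MYC and related factors, was present in 7.26% of all promoters and, among the 33 genes, at HSF2 alone. A match is a description of letters and not a measured binding site. The 250 bases before the start site are given for 4 genes with the 3-unit form, with the 2-unit and 3-unit matches in capitals. These genes include the most abundant transcripts of the set per length in DMSO. The same bases are given for CCT3, a TRiC gene that fell in both lines and has neither form. HSPA8 is at chr11:123062137-123062386 on the minus strand, HSP90AB1 at chr6:44247693-44247942 on the plus strand, HSP90AA1 at chr14:102087045-102087294 on the minus strand, CHORDC1 at chr11:90223050-90223299 on the minus strand and CCT3 at chr1:156338293-156338542 on the minus strand.
HSPA8: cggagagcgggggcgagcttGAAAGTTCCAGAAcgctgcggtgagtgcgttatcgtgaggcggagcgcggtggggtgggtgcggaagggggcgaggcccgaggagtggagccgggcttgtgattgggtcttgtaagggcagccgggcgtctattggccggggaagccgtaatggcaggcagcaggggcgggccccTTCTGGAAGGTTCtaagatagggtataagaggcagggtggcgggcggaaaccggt
HSP90AB1: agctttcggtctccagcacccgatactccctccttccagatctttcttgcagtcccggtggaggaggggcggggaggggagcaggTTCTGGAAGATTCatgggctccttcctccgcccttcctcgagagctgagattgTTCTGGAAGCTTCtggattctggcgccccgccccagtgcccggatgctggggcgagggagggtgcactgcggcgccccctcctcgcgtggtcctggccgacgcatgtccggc
HSP90AA1: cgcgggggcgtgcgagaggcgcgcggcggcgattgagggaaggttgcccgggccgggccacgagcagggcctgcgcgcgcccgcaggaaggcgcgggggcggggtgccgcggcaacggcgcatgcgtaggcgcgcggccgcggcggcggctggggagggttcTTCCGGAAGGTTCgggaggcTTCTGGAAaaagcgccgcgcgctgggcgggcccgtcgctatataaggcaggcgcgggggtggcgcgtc
CHORDC1: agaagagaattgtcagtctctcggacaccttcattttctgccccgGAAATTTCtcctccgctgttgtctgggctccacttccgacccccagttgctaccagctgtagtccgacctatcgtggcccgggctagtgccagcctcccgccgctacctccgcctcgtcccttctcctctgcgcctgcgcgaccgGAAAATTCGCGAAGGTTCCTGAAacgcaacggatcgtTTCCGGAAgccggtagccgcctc
CCT3: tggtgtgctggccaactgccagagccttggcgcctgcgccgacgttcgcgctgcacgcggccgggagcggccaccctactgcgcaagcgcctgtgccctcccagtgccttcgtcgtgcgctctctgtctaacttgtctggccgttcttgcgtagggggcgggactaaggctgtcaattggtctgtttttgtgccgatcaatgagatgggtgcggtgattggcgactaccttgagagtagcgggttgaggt
HSPA8 and HSP90AB1 each hold 2 copies of the 3-unit form in these bases and CHORDC1 holds 3 overlapping ones. The window shown for HSP90AB1 is 1 of 3 listed for that gene and the one for HSP90AA1 1 of 2, and the windows not shown hold neither form in the 250 bases.

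With dBRD9-A, 8 of the 38 genes fell in both lines: 2 of 8 HSP90 co-chaperones (AHSA1 and FKBP4), 1 of 2 HSP110 genes (HSPH1), 1 of 3 BAG factors (BAG1) and 4 of 8 TRiC subunits (CCT2, CCT3, CCT4 and CCT7). They fell by 20.8% to 49.1% in the fit. A gene was called at an adjusted p under 0.05 (edgeR quasi-likelihood test, Benjamini-Hochberg over all genes tested). In OPM2 9 of the 38 genes fell, against 7.34% of all genes, and 2 rose, against 10.1% (17.4% of all genes called in either direction). In H929 10 of 38 fell, against 5.67% of all genes, and 0 rose, against 7.33%, with 13% called in either direction. At an unadjusted p under 0.05, 17 of 38 were lower and 0 higher in H929. DESeq2 called 11 lower and 0 higher there, with 7.61% of all genes lower and 19.2% called in either direction. For H929, limma-voom with a weight per library called 23 lower and 1 higher, with 18.6% of all genes lower and 36% called in either direction. In OPM2 DESeq2 called 9 lower and 2 higher, with 9.91% of all genes lower and 24.9% called in either direction. Its share of the 38 called in either direction in OPM2 was thus near that of all genes. There limma-voom called 24 lower and 2 higher, with 20.9% lower and 44.1% called in either direction. The median log2 fold change over the 38 genes was -0.11 in OPM2, beside 0.03 over all genes, and -0.36 in H929, beside 0.00. The 8 of 38 that fell in both lines stand against 3.19% of all genes, and 0 rose in both, against 3.77%. DNAJB1 fell and DNAJB4 and HSPB1 rose with a call in OPM2, HSPA14 and TCP1 fell with a call in H929, and 25 genes were called in neither line. No change in either line reached a factor of 2 in the fit. Every dBRD9-A library was below every DMSO library for 11 genes in OPM2, against 18.9% of all genes, and for 31 genes in H929, against 23.6%. The reverse order held for 4 genes in OPM2, against 18.8%, and for 2 in H929, against 22%.

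These counts depended on OPM2 dBRD9-A replicate 2. Without it, 22 of 38 genes fell and 2 rose in OPM2, against 15.6% and 16.1% of all genes, with a median log2 fold change of -0.36. In H929, whose own libraries stay the same but whose spread per gene is estimated together with OPM2, 23 of 38 then fell and 1 rose, against 16.5% and 19.2% of all genes. In the fit of both lines together without that library, 20 of 38 fell in both lines, against 10.4% of all genes, and these included HSP90AA1, HSP90AB1, HSPA8, HSPA4, STIP1, CHORDC1, DNAJA2, HSPA14, PFDN2 and the TRiC subunits TCP1, CCT5 and CCT6A. When H929 was fitted alone, 22 of 38 fell and 0 rose, against 16.3% of all genes lower and 32.3% called in either direction. When OPM2 was fitted alone, FKBP4 and BAG1 fell and the other 9 calls were lost, 2 of 38 against 5.82% of all genes called in either direction (2.14% lower), a share called no higher than the background. Leaving out OPM2 DMSO replicate 1, 2 or 3 left 4, 3 or 5 genes called in OPM2, against 9.16%, 8.28% and 8.91% of all genes. Leaving out OPM2 dBRD9-A replicate 1 left 7, against 13.7%, and leaving out replicate 3 left 9, against 22.3%. Without DMSO replicate 1 or 2 or dBRD9-A replicate 3, the share of the 38 called in either direction was thus near the background. Of these calls 4, 3 and 7 were lower, against 3.64%, 3.24% and 9.32% of all genes. In H929, leaving out DMSO replicate 1, 2 or 3 left 5, 3 or 4 genes called, against 8.88%, 4.86% and 6.34% of all genes. Leaving out H929 dBRD9-A replicate 1, 2 or 3 left 2, 5 or 4, against 5.37%, 7.91% and 9.05%. Without replicate 1 or 3 the share of the 38 called in either direction was thus near that of all genes. Of these calls 2 and 4 were lower, against 1.59% and 3.34% of all genes. FKBP4 and BAG1 were called in both lines, and CCT3 in OPM2, whichever of the 12 libraries was left out. Removal of the trend with transcript length ended the OPM2 calls of AHSA1, CCT2 and CCT4 (adjusted p of 0.0635, 0.105 and 0.0652), and analysis by library size without scaling ended those of CCT3, CCT4 and CCT7 in H929 and DNAJB1 in OPM2 (0.0909, 0.112, 0.0689 and 0.0832). DESeq2's size factors in edgeR ended the H929 calls of HSPH1, HSPA14 and CCT4 (0.054, 0.0617 and 0.0844), and testing without the low-count filter those of HSPA14, CCT4 and CCT7 in H929 and HSPB1 in OPM2 (0.0559, 0.09, 0.0579 and 0.0527). The H929 call of CCT4 was also lost with a filter of 1 CPM in 3 libraries, with the length trend removed and with counts summed over transcripts (0.0712, 0.0652 and 0.0564).

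**Figure D1:**
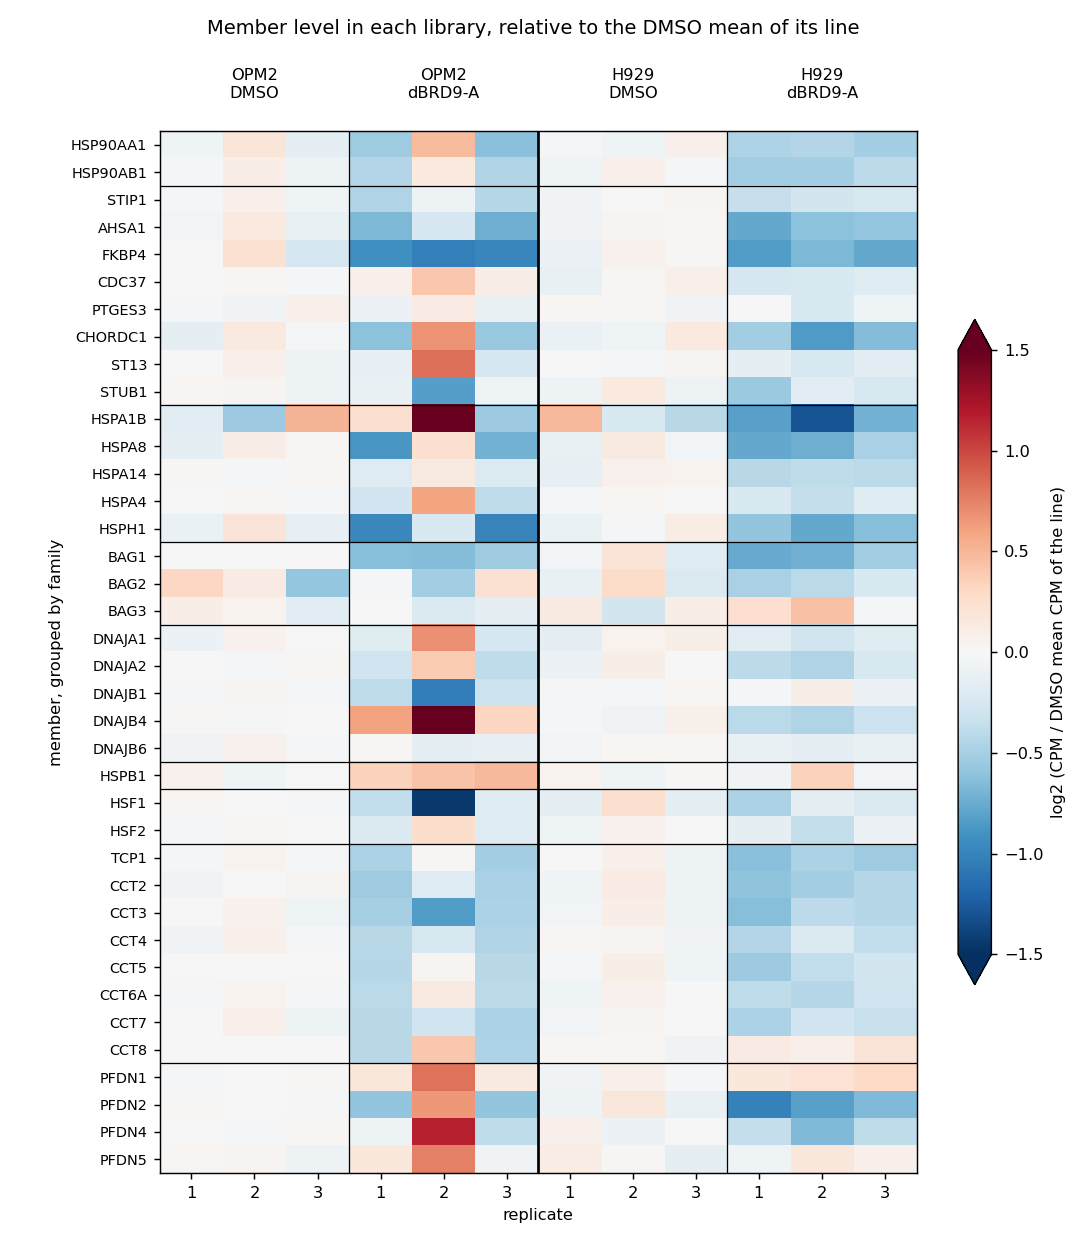
Log2 ratio of the level (CPM) of each of the 38 tested genes in each library to the DMSO mean of its line, with libraries in columns, genes in rows grouped by family, blue for lower and red for higher (the colour scale ends at 1.5 in each direction). Most rows are blue in OPM2 dBRD9-A replicates 1 and 3 and in the 3 H929 dBRD9-A libraries, and 29 of 38 genes are higher in OPM2 dBRD9-A replicate 2 than in the mean of its group mates.

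**Figure D2:**
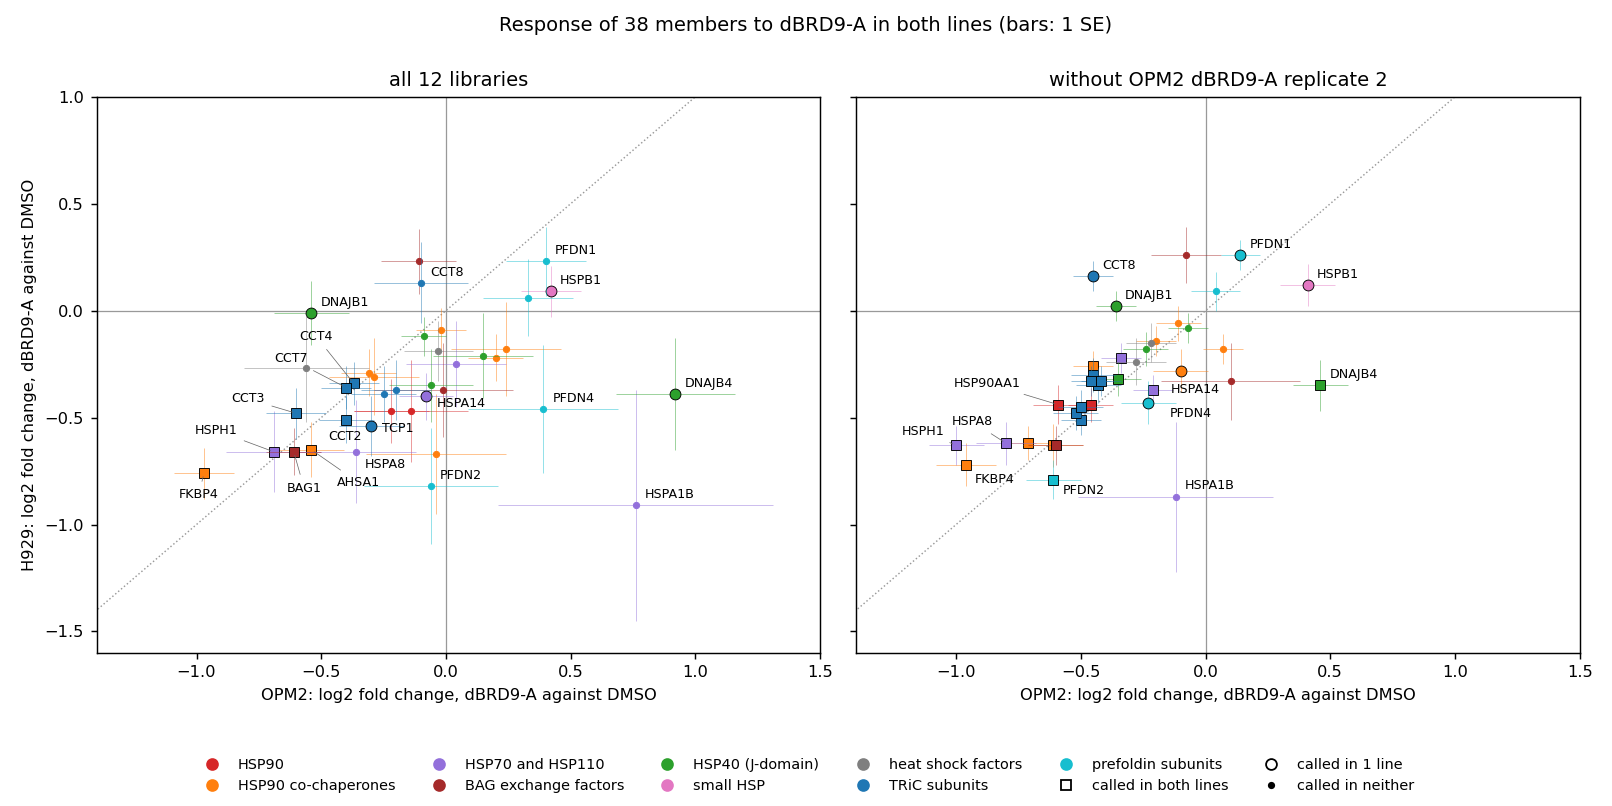
Log2 fold change with dBRD9-A against DMSO in OPM2 (horizontal axis) and in H929 (vertical axis) for 38 genes, with bars of 1 SE, from all 12 libraries (left) and without OPM2 dBRD9-A replicate 2 (right). Squares are genes called in both lines (8 on the left, 20 lower in both and DNAJB4 in opposite directions on the right), circles in 1 line and dots in neither, and the dotted line marks equal change.

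The cytosolic HSP90 proteins, HSP90AA1 (the more stress-inducible form) and HSP90AB1 (the constitutive form), keep kinases and steroid receptors in an active shape. HSP90AA1 was at 2379, 2817 and 2277 CPM with DMSO and 1723, 3466 and 1612 CPM with dBRD9-A in OPM2. In H929 it was at 2431, 2343 and 2595 CPM with DMSO and 1776, 1818 and 1722 CPM with dBRD9-A. HSP90AB1 was at 2018, 2211 and 1967 CPM with DMSO and 1518, 2278 and 1508 CPM with dBRD9-A in OPM2. In H929 it was at 2533, 2772 and 2612 CPM with DMSO and 1835, 1854 and 2017 CPM with dBRD9-A. For both genes the H929 treated libraries lay below all DMSO libraries, whereas in OPM2 replicate 2 lay above all 3 DMSO libraries and its group mates below them. Neither was called: HSP90AA1 gave a log2 fold change of -0.14 ± 0.23 (SE, adjusted p = 0.726) in OPM2 and -0.47 ± 0.24 (SE, adjusted p = 0.223) in H929. HSP90AB1 gave -0.22 ± 0.15 (SE, adjusted p = 0.328) and -0.47 ± 0.15 (SE, adjusted p = 0.0612). With OPM2 dBRD9-A replicate 2 left out, the OPM2 values were -0.59 (adjusted p = 0.000567) and -0.46 (adjusted p = 0.0013), and the H929 values -0.44 (adjusted p = 0.00161) and -0.44 (adjusted p = 0.000624), so that both were then called in both lines. Per transcript length, HSP90AB1 made up 48.5% to 57.2% of the HSP90 signal in OPM2 libraries and 59.0% to 62.9% in H929 libraries.

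Among 8 HSP90 co-chaperones, FKBP4 and AHSA1 fell in both lines and the other 6 were called in neither. FKBP4 (FKBP52), an immunophilin that supports steroid receptor signalling, was at 276, 325 and 233 CPM with DMSO and 147, 137 and 141 CPM with dBRD9-A in OPM2, with all 3 treated libraries close together and far below the lowest DMSO library. In H929 it was at 253, 282 and 272 CPM with DMSO and 151, 169 and 158 CPM with dBRD9-A, again without overlap. Its log2 fold change was -0.97 ± 0.12 (SE, adjusted p = 0.000376) in OPM2 and -0.76 ± 0.12 (SE, adjusted p = 0.00238) in H929, the steepest fall among the 38 genes in OPM2. AHSA1 (AHA1), which stimulates the ATPase of HSP90, was at 204, 232 and 195 CPM with DMSO and 132, 176 and 127 CPM with dBRD9-A in OPM2. In H929 it was at 145, 153 and 151 CPM with DMSO and 87.7, 98 and 100.3 CPM with dBRD9-A, and the groups did not overlap in either line. It changed by -0.54 ± 0.13 (SE, adjusted p = 0.0165) on the log2 scale in OPM2 and by -0.65 ± 0.13 (SE, adjusted p = 0.00837) in H929. The OPM2 call of AHSA1 was lost without DMSO replicate 2 or without dBRD9-A replicate 1, and the H929 call without dBRD9-A replicate 1, with a highest adjusted p of 0.0746 and 0.0503.

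STIP1 (HOP), the adaptor between HSP70 and HSP90, was at 498, 532 and 480.5 CPM with DMSO and 369, 478 and 375 CPM with dBRD9-A in OPM2. In H929 it was at 514, 534 and 548 CPM with DMSO and 417, 438 and 449.9 CPM with dBRD9-A. The groups did not overlap in either line, but STIP1 was not called (-0.31 ± 0.11 (SE, adjusted p = 0.0841) in OPM2 and -0.29 ± 0.11 (SE, adjusted p = 0.119) in H929), and without OPM2 dBRD9-A replicate 2 it was called in both (-0.45 (adjusted p = 0.000907) and -0.26 (adjusted p = 0.0129)). CHORDC1, an HSP90-binding protein with 3 copies of the heat shock element at its promoter, was at 68.4, 83.9 and 74.3 CPM with DMSO and 49.2, 121 and 50.8 CPM with dBRD9-A in OPM2, where replicate 2 was the only treated library above the DMSO libraries. In H929 CHORDC1 was at 187, 192 and 221 CPM with DMSO and 139.7, 111 and 127 CPM with dBRD9-A, with every treated library lower, and its log2 fold change there was -0.67 ± 0.28 (SE, adjusted p = 0.142). It was called in both lines once OPM2 dBRD9-A replicate 2 was left out, at -0.61 (adjusted p = 0.00118) and -0.63 (adjusted p = 0.000264). CDC37, which loads kinases onto HSP90, was at 199.9, 206 and 198 CPM with DMSO and 212, 267 and 216 CPM with dBRD9-A in OPM2, with every treated library above the DMSO libraries. In H929 CDC37 was at 325, 354 and 369 CPM with DMSO and 295, 299.6 and 309 CPM with dBRD9-A, with every treated library below them. Neither change was called, at 0.20 ± 0.11 (SE, adjusted p = 0.218) and -0.22 ± 0.11 (SE, adjusted p = 0.223). PTGES3 (p23), ST13 (HIP) and the ubiquitin ligase STUB1 (CHIP) had log2 fold changes of -0.02, 0.24 and -0.29 in OPM2 and -0.09, -0.18 and -0.31 in H929, none called. ST13 stood at 516 CPM in OPM2 dBRD9-A replicate 2 and at 244 and 268 CPM in its group mates. STUB1 shares 698 exon bases with JMJD8 on the opposite strand (GENCODE annotation of GRCh38), so its reads and those of JMJD8 cannot be told apart where the counting ignored strand.

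**Figure D3:**
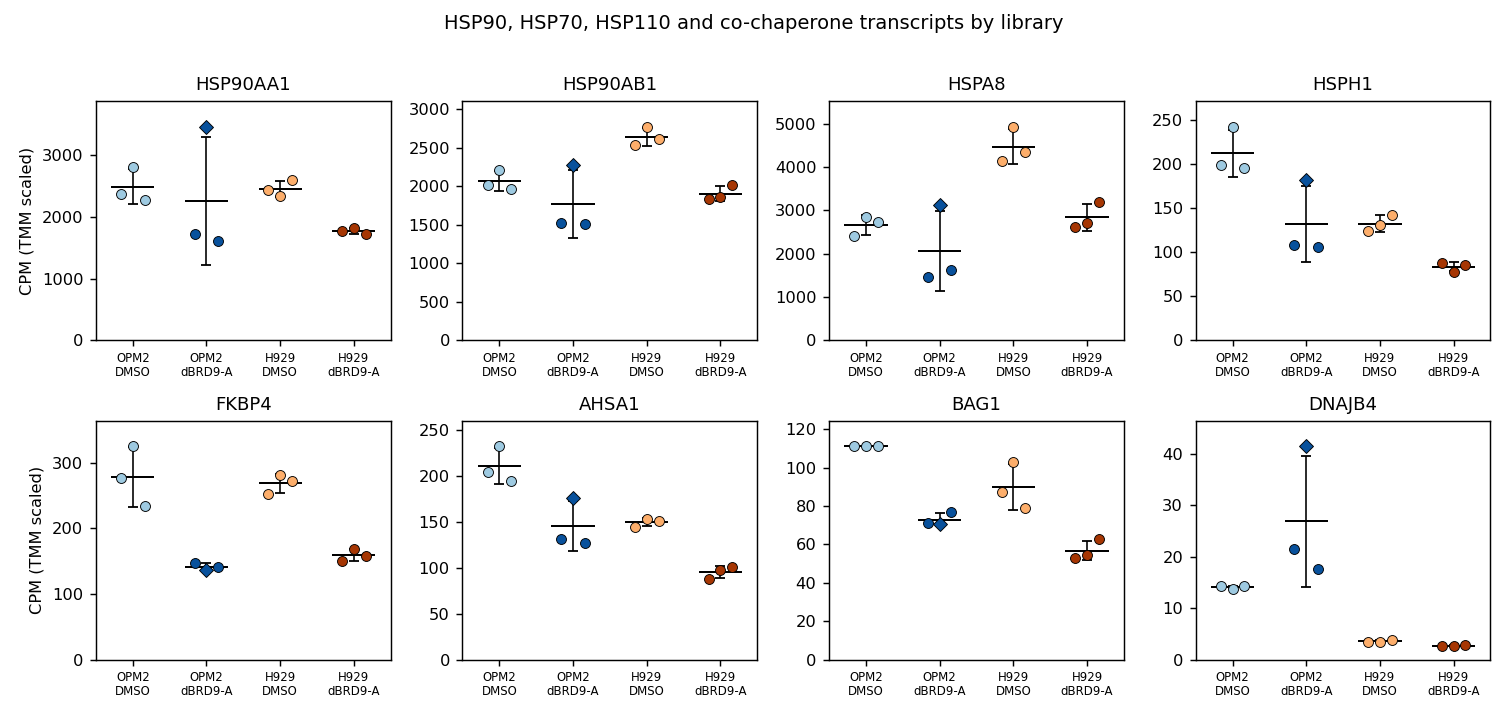
CPM (TMM scaled) in each library for 8 genes, with points for libraries, horizontal bars for group means and error bars for 1 SD (n = 3), and OPM2 dBRD9-A replicate 2 drawn as a diamond. FKBP4 and BAG1 are lower in every treated library of both lines, while for HSP90AA1, HSP90AB1 and HSPA8 the diamond lies above the DMSO points.

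In the HSP70 and HSP110 family, HSPH1 fell in both lines and HSPA14 fell with a call in H929. HSPA8 (HSC70), the constitutive HSP70 and the most abundant transcript of the set per length, was at 2407, 2839 and 2720 CPM with DMSO and 1453, 3131 and 1619 CPM with dBRD9-A in OPM2. In H929 HSPA8 was at 4135, 4926 and 4344 CPM with DMSO and 2622, 2695 and 3182 CPM with dBRD9-A. It was not called (-0.36 ± 0.24 (SE, adjusted p = 0.311) in OPM2 and -0.66 ± 0.24 (SE, adjusted p = 0.0909) in H929), and without OPM2 dBRD9-A replicate 2 it was called in both, at -0.80 (adjusted p = 0.000138) and -0.62 (adjusted p = 0.000285). HSPH1 (HSP105), an HSP110 that recharges HSP70 and helps to dissolve aggregates, was at 198, 242 and 195 CPM with DMSO and 108, 181 and 106 CPM with dBRD9-A in OPM2. In H929 HSPH1 was at 123, 130.5 and 142 CPM with DMSO and 87.7, 77.3 and 85 CPM with dBRD9-A. Treated and DMSO libraries of HSPH1 did not overlap in either line, with log2 fold changes of -0.69 ± 0.19 (SE, adjusted p = 0.0258) and -0.66 ± 0.19 (SE, adjusted p = 0.0356). Its OPM2 call was lost on leaving out any OPM2 DMSO library or dBRD9-A replicate 1 or 3, and its H929 call on leaving out any of the 6 H929 libraries or OPM2 DMSO replicate 1 or 3, with a highest adjusted p of 0.105 and 0.13.

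HSPA4 (APG-2), the other HSP110 of the set, was at 155, 156 and 153 CPM with DMSO and 127, 233 and 119 CPM with dBRD9-A in OPM2. In H929 HSPA4 was at 417, 434 and 424 CPM with DMSO and 362, 332 and 375 CPM with dBRD9-A, higher than in OPM2 in every group. Its log2 fold change was 0.04 ± 0.20 (SE, adjusted p = 0.909) in OPM2, where it turned to -0.34 (adjusted p = 0.00501) without replicate 2, and -0.25 ± 0.20 (SE, adjusted p = 0.468) in H929. HSPA14 (HSP70L1), an HSP70 of the ribosome-associated complex, was at 111, 107 and 111 CPM with DMSO and 95.7, 121 and 95.1 CPM with dBRD9-A in OPM2. In H929 HSPA14 was at 57.8, 65.6 and 65.3 CPM with DMSO and 47.1, 48.2 and 47.4 CPM with dBRD9-A, and its log2 fold change was -0.08 ± 0.11 (SE, adjusted p = 0.658) in OPM2 and -0.40 ± 0.11 (SE, adjusted p = 0.0338) in H929. The H929 call of HSPA14 was lost in 8 of the 12 fits with a library left out: any OPM2 DMSO library, H929 DMSO replicate 2 or 3, or any H929 dBRD9-A library.

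The stress-inducible HSP70 genes HSPA1A and HSPA1B could not be judged. They are near-identical neighbours in the major histocompatibility complex region, and the deposited files list each under 5 entries. The chosen HSPA1A entry had at most 2 counts in any library and HSPA1B at most 69, so HSPA1A was not tested. In OPM2 HSPA1B was at 0.393, 0.301 and 0.623 CPM with DMSO and 0.518, 1.68 and 0.302 CPM with dBRD9-A, and neither line gave a call (0.76 ± 0.55 (SE, adjusted p = 0.358) and -0.91 ± 0.54 (SE, adjusted p = 0.318)). PFDN6, from the same region and under 20 entries, had at most 1 count and was not tested either. Whether reads of such copies were dropped in counting was not tested, so these levels are uncertain.

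Of the BAG exchange factors, BAG1 fell in both lines. BAG1, which also binds BCL2 and the proteasome, was at 111, 111 and 111 CPM with DMSO and 71.3, 70.5 and 76.8 CPM with dBRD9-A in OPM2. In H929 BAG1 was at 87.4, 103 and 79.2 CPM with DMSO and 53.1, 54.7 and 62.6 CPM with dBRD9-A, and in both lines all treated libraries lay below all DMSO libraries. Its log2 fold change was -0.61 ± 0.11 (SE, adjusted p = 0.00466) in OPM2 and -0.66 ± 0.11 (SE, adjusted p = 0.00356) in H929, and replicate 2 did not stand apart for it. BAG3, a stress-induced factor of selective autophagy, was at 35.9, 34.8 and 29.9 CPM with DMSO and 33.8, 28.8 and 30.3 CPM with dBRD9-A in OPM2. In H929 BAG3 was at 43.1, 32.3 and 42 CPM with DMSO and 46.4, 52.9 and 38.5 CPM with dBRD9-A, and the groups overlapped in both lines (log2 fold changes -0.11 and 0.23, not called). BAG2, an inhibitor of STUB1, was near the detection limit in OPM2, at 0.363 to 0.675 CPM, and at 4.43 to 7.51 CPM in H929, and was called in neither. BAG2 shares 2842 exon bases with RAB23 on the opposite strand, which limits its value in the same way as for STUB1.

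Among the 5 J-domain proteins, DNAJB1 fell and DNAJB4 rose with a call in OPM2, against 17.4% of all genes called in either direction. In H929 0 of 5 were called by edgeR or DESeq2, against 13% and 19.2% of all genes, with 0 at an unadjusted p under 0.05. For H929, limma-voom called 1 of 5, against 36% of all genes, a share no higher than the background. DNAJB1 (HSP40), the main stress-inducible J-domain partner of HSP70, was at 169, 175 and 167 CPM with DMSO and 131, 83.1 and 136 CPM with dBRD9-A in OPM2, all treated libraries being lower and replicate 2 the lowest. In H929 DNAJB1 was at 103, 103 and 106 CPM with DMSO and 102, 110.1 and 98.1 CPM with dBRD9-A, with overlapping groups. Its log2 fold change was -0.54 ± 0.15 (SE, adjusted p = 0.0317) in OPM2 and -0.01 ± 0.15 (SE, adjusted p = 0.983) in H929. DNAJB4 (HLJ1) was at 14.3, 13.8 and 14.2 CPM with DMSO and 21.5, 41.5 and 17.7 CPM with dBRD9-A in OPM2, every treated library being higher and replicate 2 the highest. In H929 DNAJB4 was at 3.48, 3.44 and 3.76 CPM with DMSO and 2.69, 2.61 and 2.85 CPM with dBRD9-A, every treated library being lower. The log2 fold change of DNAJB4 was 0.92 ± 0.24 (SE, adjusted p = 0.0234) in OPM2 and -0.39 ± 0.26 (SE, adjusted p = 0.375) in H929. With the GC trend removed the OPM2 value was 0.59 (adjusted p = 0.00437). The rise in OPM2 without dBRD9-A replicate 2 was 0.46 (adjusted p = 0.00491) and the fall in H929 -0.35 (adjusted p = 0.0278), and both were called. The OPM2 calls of DNAJB1 and DNAJB4 were lost without any 1 of the 3 OPM2 DMSO libraries, with a highest adjusted p of 0.102 and 0.0843.

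DNAJA1 and DNAJA2, the general J-domain partners of HSC70, were not called, at 0.15 and -0.06 on the log2 scale in OPM2 and -0.21 and -0.35 in H929. DNAJA2 was called in both lines without OPM2 dBRD9-A replicate 2, at -0.35 (adjusted p = 0.00664) and -0.32 (adjusted p = 0.00554). DNAJB6, which keeps polyglutamine proteins from aggregating, was the steadiest of the 5, with log2 fold changes of -0.09 ± 0.09 (SE, adjusted p = 0.543) and -0.12 ± 0.09 (SE, adjusted p = 0.449) and 95% confidence intervals of -0.28 to 0.11 and -0.31 to 0.08.

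HSPB1 (HSP27), a small heat shock protein that holds unfolded proteins without ATP, rose with a call in OPM2. It was at 68.7, 63.1 and 65.7 CPM with DMSO and 83.8, 88.8 and 92 CPM with dBRD9-A there, without overlap. In H929 HSPB1 was at 33.9, 31.2 and 33 CPM with DMSO and 31.4, 41.4 and 31.8 CPM with dBRD9-A, with overlapping groups. HSPB1 changed by 0.42 ± 0.12 (SE, adjusted p = 0.0302) in OPM2 and 0.09 ± 0.12 (SE, adjusted p = 0.684) in H929. Its transcript is 64.5% GC, and with the GC trend removed the OPM2 value was 0.91 (adjusted p = 0.0128). The OPM2 call was lost in 7 of 12 fits with a library left out, namely any DMSO library of either line or OPM2 dBRD9-A replicate 3, and its highest adjusted p was 0.119.

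The heat shock factors, which switch these genes on, were not called by edgeR or DESeq2 in either line. With limma-voom both were called lower in OPM2, against 20.9% of all genes lower. It called 0 in H929, against 36% of all genes called in either direction. HSF1 was at 53.3, 51.8 and 51.2 CPM with DMSO and 40.3, 19.1 and 46 CPM with dBRD9-A in OPM2, all treated libraries being lower and replicate 2 the lowest. In H929 HSF1 was at 24.2, 31.3 and 23.9 CPM with DMSO and 19.1, 23.9 and 22.8 CPM with dBRD9-A. Its log2 fold change was -0.56 ± 0.25 (SE, adjusted p = 0.135) in OPM2 and -0.27 ± 0.25 (SE, adjusted p = 0.537) in H929, and without OPM2 dBRD9-A replicate 2 it was -0.28 (adjusted p = 0.0831) and -0.24 (adjusted p = 0.105). HSF2 changed by -0.03 ± 0.14 (SE, adjusted p = 0.899) and -0.19 ± 0.14 (SE, adjusted p = 0.435), at 16.1 to 27.1 CPM in all libraries. The 6 genes with the 3-unit heat shock element had a median log2 fold change of -0.12 in OPM2 and -0.47 in H929, with 0 called in each line. At an unadjusted p under 0.05, 0 of the 6 were lower in OPM2 and 3 in H929. DESeq2 called 0 in each line and limma-voom 4 in each, against 44.1% and 36% of all genes. The 25 other tested genes with a listed promoter had medians of -0.10 and -0.35, with 10 and 8 called, against 17.4% and 13% of all genes. Without OPM2 dBRD9-A replicate 2, 4 of the 6 were called in each line, with medians of -0.52 and -0.44. In that fit 16 and 15 of the 25 were called, against 31.7% and 35.7% of all genes. The difference between the 6 and the 25 was not tested.

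TRiC is built from 8 different subunits, encoded by TCP1 (CCT1) and CCT2 to CCT8. In OPM2 CCT2, CCT3, CCT4 and CCT7 fell, and in H929 these 4 and TCP1 fell. Thus 4 of 8 and 5 of 8 were called, all lower, against 7.34% and 5.67% of all genes lower. The median over the 8 was -0.33 in OPM2 and -0.38 in H929. Their summed level went from 3779 ± 101 CPM (SD, n = 3) with DMSO to 2978 ± 383 CPM with dBRD9-A in OPM2 and from 4308 ± 199 to 3416 ± 179 CPM in H929. Without OPM2 dBRD9-A replicate 2, all 8 fell in OPM2 and all except CCT8 fell in H929, against 15.6% and 16.5% of all genes lower.

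CCT3 was the most abundant subunit per transcript length in all 12 libraries. It was at 1008, 1052 and 969.8 CPM with DMSO and 713, 564 and 726 CPM with dBRD9-A in OPM2, with replicate 2 the lowest. In H929 CCT3 was at 1181, 1302 and 1155 CPM with DMSO and 782, 924 and 903 CPM with dBRD9-A. The groups did not overlap in either line, and CCT3 changed by -0.60 ± 0.12 (SE, adjusted p = 0.00682) in OPM2 and -0.48 ± 0.12 (SE, adjusted p = 0.0235) in H929. CCT2 was at 225, 235 and 240.3 CPM with DMSO and 161, 204 and 167 CPM with dBRD9-A in OPM2. In H929 CCT2 was at 313, 355 and 309 CPM with DMSO and 215, 228 and 242 CPM with dBRD9-A, and neither line showed overlap. CCT2 changed by -0.40 ± 0.11 (SE, adjusted p = 0.0318) and -0.51 ± 0.11 (SE, adjusted p = 0.0127). CCT4 and CCT7 fell as well, with log2 fold changes in OPM2 and H929 of -0.37 ± 0.10 (SE, adjusted p = 0.0276) and -0.34 ± 0.10 (SE, adjusted p = 0.0484) for CCT4 and -0.40 ± 0.10 (SE, adjusted p = 0.0154) and -0.36 ± 0.10 (SE, adjusted p = 0.0277) for CCT7, again without overlap. Most of these calls were lost in some fits with a library left out. In H929 the calls of CCT3 and CCT7 were lost on leaving out any of the 6 H929 libraries (highest adjusted p 0.152 and 0.148), that of CCT2 without DMSO replicate 2 or dBRD9-A replicate 1 (0.0742), and that of CCT4 in 10 of 12 fits, all but those without OPM2 dBRD9-A replicate 2 or 3 (0.21). In OPM2 CCT2 and CCT4 each lost the call in 5 fits, on leaving out any DMSO library or dBRD9-A replicate 1 or 3 (0.0968 and 0.106), and CCT7 without DMSO replicate 1 or 2 (0.0677).

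TCP1 was at 494, 524 and 492 CPM with DMSO and 364, 510.2 and 354 CPM with dBRD9-A in OPM2, where replicate 2 fell among the DMSO libraries. In H929 TCP1 was at 247, 259.6 and 234 CPM with DMSO and 159.7, 178 and 171 CPM with dBRD9-A and had the lowest level per length of the 8 in all 6 libraries. It changed by -0.30 ± 0.13 (SE, adjusted p = 0.143) in OPM2 and -0.54 ± 0.14 (SE, adjusted p = 0.0219) in H929. The H929 call of TCP1 was lost on leaving out any H929 DMSO library or H929 dBRD9-A replicate 1 or 3, with a highest adjusted p of 0.101. TCP1 shares 397 exon bases with ACAT2 on the opposite strand. CCT5 and CCT6A were not called in either line, at -0.25 and -0.20 in OPM2 and -0.39 and -0.37 in H929, though all treated H929 libraries were lower. CCT5 shares 1757 exon bases with a non-coding gene on the opposite strand.

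CCT8 did not fall with the other subunits in H929. It was at 612, 619.7 and 583 CPM with DMSO and 659, 636 and 689.8 CPM with dBRD9-A there, every treated library being higher. In OPM2 CCT8 was at 381, 381 and 379.7 CPM with DMSO and 286, 503 and 277 CPM with dBRD9-A, with replicates 1 and 3 lower and replicate 2 higher than DMSO. CCT8 changed by 0.13 ± 0.19 (SE, adjusted p = 0.718) in H929 and -0.10 ± 0.19 (SE, adjusted p = 0.747) in OPM2. It fell in OPM2 when that replicate was left out, at -0.45 (adjusted p = 0.000659), and was not called in H929, at 0.16 (adjusted p = 0.0833). The ratio of the highest to the lowest subunit per length was 2.77 in OPM2 dBRD9-A replicate 2, 3.90 to 4.07 in the other OPM2 libraries and 5.29 to 5.84 in H929.

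**Figure D4:**
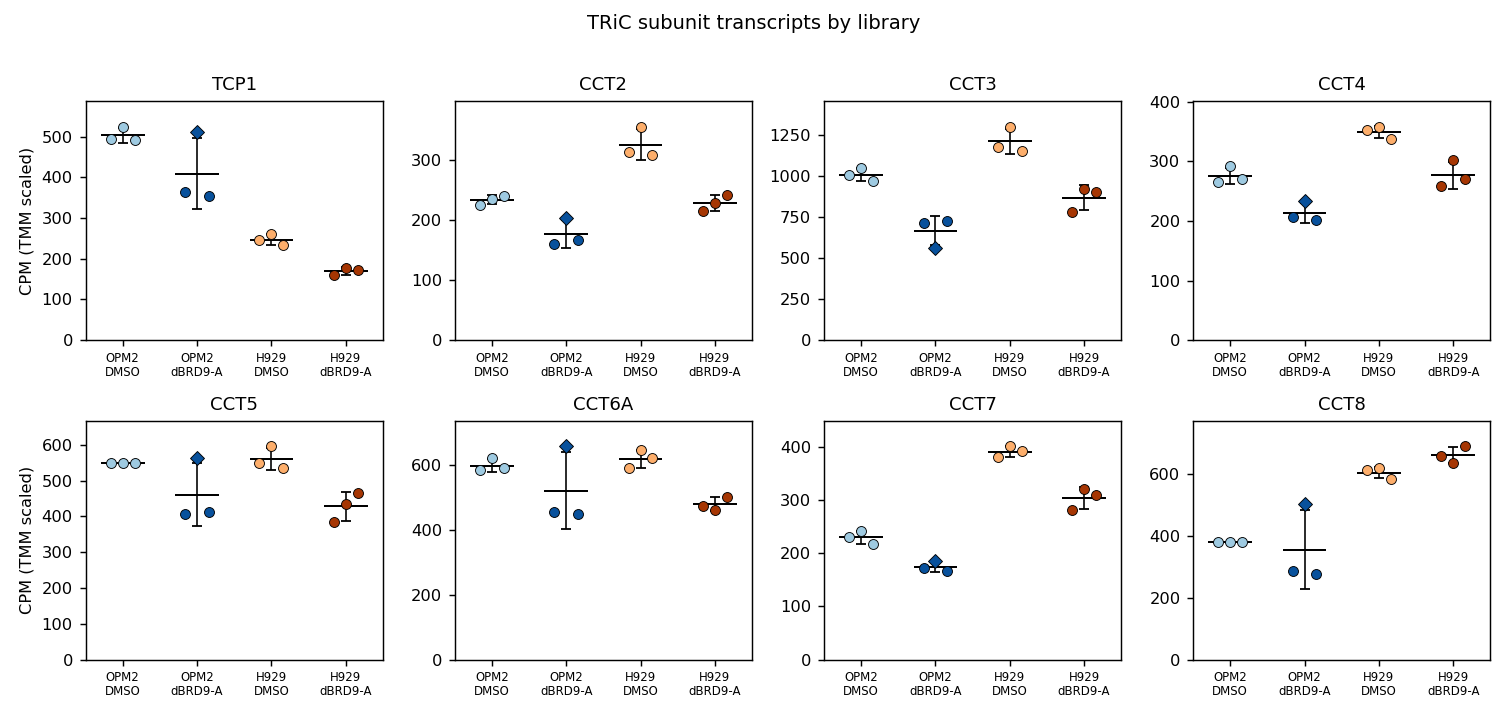
CPM (TMM scaled) of the 8 TRiC subunits in each library, with points for libraries, horizontal bars for means, error bars for 1 SD (n = 3) and a diamond for OPM2 dBRD9-A replicate 2. CCT2, CCT3, CCT4 and CCT7 are lower in all treated libraries of both lines, and CCT8 is higher in all 3 treated H929 libraries.

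Prefoldin subunits were not called in either line by edgeR, with 1 of 4 at an unadjusted p under 0.05 in each. DESeq2 called 1 of 4 lower in H929, against 7.61% of all genes lower. With limma-voom 1 was called lower in OPM2, against 20.9% of all genes lower. It called 2 lower and 1 higher in H929, against 18.6% of all genes lower and 36% called in either direction. PFDN2 was at 114, 112 and 109.5 CPM with DMSO and 74.1, 175 and 74.2 CPM with dBRD9-A in OPM2. In H929 PFDN2 was at 119, 141 and 116 CPM with DMSO and 61.9, 70.8 and 79.3 CPM with dBRD9-A, every treated library being lower, with a log2 fold change of -0.82 ± 0.27 (SE, adjusted p = 0.067). With OPM2 dBRD9-A replicate 2 left out, PFDN2 was called in both lines, at -0.61 (adjusted p = 0.00062) and -0.79 (adjusted p = 2.53e-05). That fit also called PFDN1 higher in H929, at 0.26 (adjusted p = 0.0104), and PFDN4 lower there, at -0.43 (adjusted p = 0.00384), and neither in OPM2. PFDN1 was at 31.8, 31.9 and 32.5 CPM with DMSO and 36.1, 56.4 and 35.2 CPM with dBRD9-A in OPM2. In H929 PFDN1 was at 50.3, 55.4 and 51.4 CPM with DMSO and 58.5, 60.9 and 64.2 CPM with dBRD9-A; every treated library was higher in both lines, with log2 fold changes of 0.40 ± 0.16 (SE, adjusted p = 0.0978) and 0.23 ± 0.16 (SE, adjusted p = 0.403). PFDN4 and PFDN5 stood at 93.6 and 156 CPM in OPM2 dBRD9-A replicate 2, above every other OPM2 library, and their log2 fold changes were 0.39 and 0.33 in OPM2 and -0.46 and 0.06 in H929.

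The genes differed in how far OPM2 dBRD9-A replicate 2 departed from replicates 1 and 3. It was higher than their mean for 29 of 38 genes and lower for 9. Across the 38 genes this departure followed transcript GC content, which ran from 33.1% to 65.8%, with a Spearman correlation of -0.49 (a description over genes that share 3 libraries). PFDN4 (35.3% GC) was 2.61 times and DNAJB4 (33.1%) 2.12 times the mean of replicates 1 and 3. The trend had exceptions: HSPA1B (58.7%), at few counts, was 4.11 times and PFDN2 (52.6%) 2.36 times that mean, and BAG2 (37.0%) 0.65 times. HSF1 (63.9%) was at 0.44 times and STUB1 (65.8%) at 0.60 times it. FKBP4, BAG1 and HSPB1, at 0.95, 0.95 and 1.01 times, hardly departed.

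The responses of the lines were compared directly, as H929 minus OPM2. None of the 38 genes was called, against 0.579% of all genes, in the edgeR test, with 3 at an unadjusted p under 0.05. DESeq2 called 1, against 2.27% of all genes, and limma-voom 2, against 5.38%, so that both counts were near the share of all genes. DNAJB4 had the widest gap among the 3, at -1.31 ± 0.36 (SE, adjusted p = 0.181), followed by DNAJB1 at 0.54 ± 0.22 (SE, adjusted p = 0.494) and CDC37 at -0.42 ± 0.15 (SE, adjusted p = 0.417). Without OPM2 dBRD9-A replicate 2, against 3.04% of all genes, DNAJB4 was called at -0.82 ± 0.16 (SE, adjusted p = 0.0101) and CCT8 at 0.61 ± 0.11 (SE, adjusted p = 0.00418), and DNAJB4 was also called without OPM2 dBRD9-A replicate 3, at an adjusted p of 0.0479.

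The lines also differed without the compound. Per kilobase of transcript in DMSO, HSPA8 was highest in both, at 1079 ± 90.7 CPM (SD, n = 3) in OPM2 and 1816 ± 166 CPM in H929. It was followed in both by HSP90AB1 (760 ± 47.4 and 972 ± 44.8 CPM), HSP90AA1 (641 ± 73.9 and 632 ± 32.9 CPM) and CCT3 (455 ± 18.6 and 546 ± 35.3 CPM). In OPM2 the DMSO libraries of the neighbours HSP90AB1 and HSP90AA1 overlapped on this scale, so their order is not clear over libraries. At the bottom stood DNAJB4, BAG2 and HSPA1B, at 6.31, 0.265 and 0.174 CPM per kilobase in OPM2 and 1.59, 3.02 and 0.315 in H929. Among low-level genes, HSF2 stood at 8.33 ± 0.0967 CPM per kilobase in OPM2 and 7.68 ± 0.341 in H929.

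In DMSO, 6 of 38 genes were called at an adjusted p under 0.05 and a log2 fold change of 1 or more in size, against 36.3% of all genes. CHORDC1, HSPA4 and BAG2 were higher in H929, against 21.4% of all genes, by 1.40 ± 0.28 (SE, adjusted p = 0.000906), 1.46 ± 0.21 (SE, adjusted p = 5.59e-05) and 3.52 ± 0.26 (SE, adjusted p = 1.55e-07) on the log2 scale. DNAJB4, HSPB1 and TCP1 were lower in H929, against 15% of all genes, at -1.99 ± 0.26 (SE, adjusted p = 2.52e-05), -1.01 ± 0.12 (SE, adjusted p = 1.24e-05) and -1.03 ± 0.14 (SE, adjusted p = 3.2e-05). At any fold, 11 genes were higher in H929 and 10 in OPM2 at an adjusted p under 0.05, 21 of 38 in all, against 60.2% of all genes. CDC37, CCT7, CCT8, HSPA8 and PFDN1 were among those higher in H929, and HSPA14, HSF1, DNAJB1, HSPH1 and AHSA1 among those higher in OPM2. HSP90AA1 did not differ beyond its spread, at -0.02 ± 0.23 (SE, adjusted p = 0.948). The count of 6 stayed between 5 and 7 whichever library was left out.

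**Figure D5:**
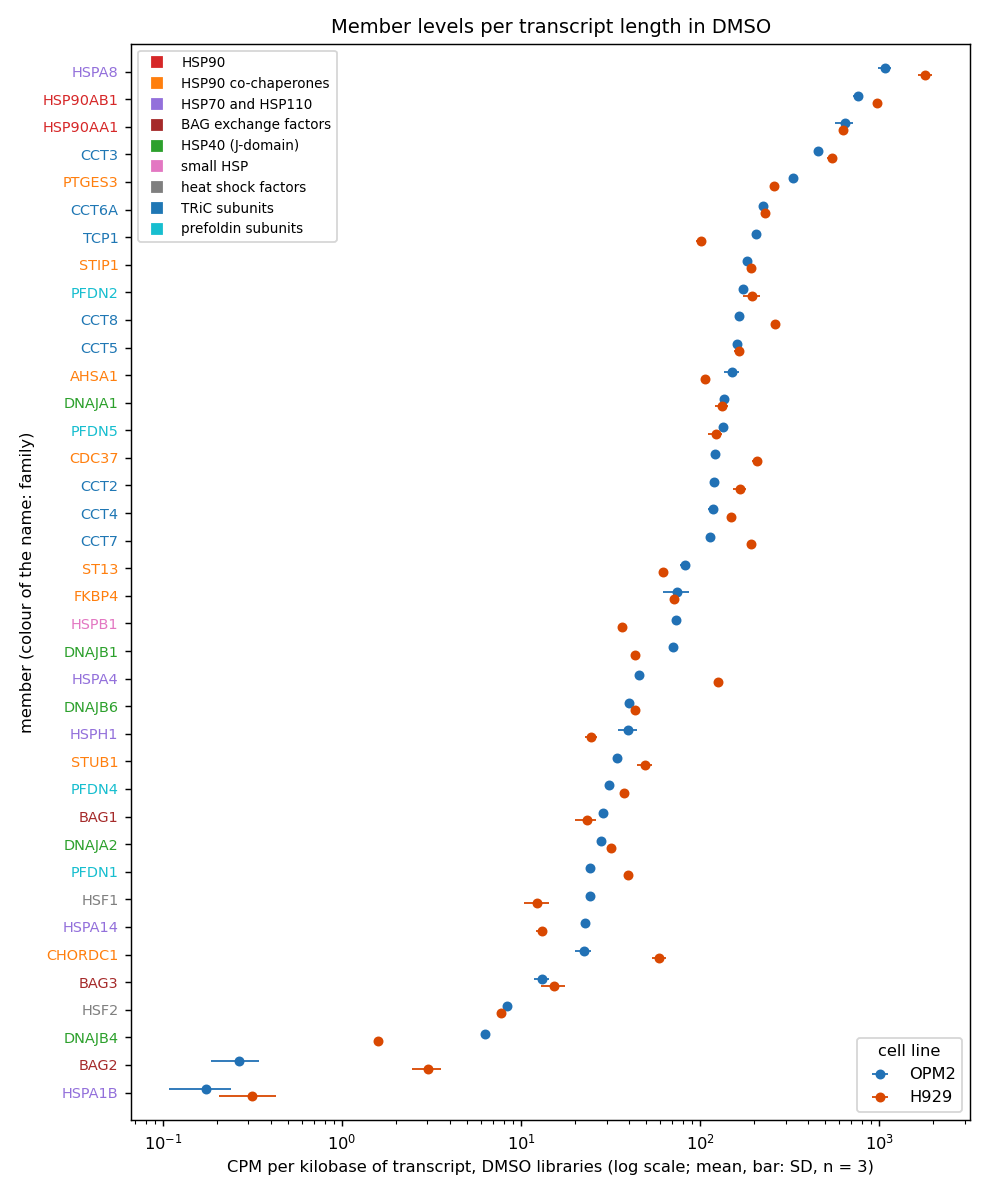
Level per transcript length in DMSO (CPM per kilobase, log scale) of the 38 genes in OPM2 (blue) and H929 (orange), as mean and SD over 3 libraries, in the order of the OPM2 level and with names coloured by family. HSPA8, HSP90AB1, HSP90AA1 and CCT3 lead in both lines, and TCP1, HSPA4, CHORDC1, DNAJB4 and BAG2 lie farthest apart between the lines.

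The other genes of the cytosolic chaperone network, from a list of 66 of which 57 were tested, were counted in the same way; like the set itself, these lists were drawn up with earlier results of these data known. In OPM2 4 rose and 6 fell of 57 (10.1% and 7.34% of all genes), with a median of -0.05, and in H929 1 rose and 5 fell (7.33% and 5.67%), with a median of -0.18. When OPM2 dBRD9-A replicate 2 was left out, the rises and falls numbered 10 and 17 in OPM2, against 16.1% and 15.6% of all genes, and 5 and 15 in H929, against 19.2% and 16.5%. The rises were thus near the background share in OPM2 and below it in H929. The R2TP and TTT complexes, which work with HSP90 to assemble polymerases and PI3-kinase-like kinases, gave 4 of the 6 falls in OPM2 and 3 of the 5 in H929. RUVBL1 changed by -0.56 ± 0.11 (SE, adjusted p = 0.00579) in OPM2 and -0.73 ± 0.11 (SE, adjusted p = 0.00178) in H929, RUVBL2 by -0.76 ± 0.20 (SE, adjusted p = 0.021) in OPM2 and TTI2 by -0.51 ± 0.12 (SE, adjusted p = 0.0111) in OPM2 and -0.65 ± 0.12 (SE, adjusted p = 0.00396) in H929. HSPBP1, an HSP70 exchange factor, fell in OPM2, at -0.77 ± 0.23 (SE, adjusted p = 0.036). TTC4, an HSP90 co-chaperone, fell in both lines, at -0.39 ± 0.12 (SE, adjusted p = 0.0368) and -0.44 ± 0.12 (SE, adjusted p = 0.0271). The chaperonin-like genes BBS10 and BBS12 rose in OPM2, by 0.94 ± 0.27 (SE, adjusted p = 0.0336) and 0.87 ± 0.20 (SE, adjusted p = 0.0124), and HSPB7, a small heat shock protein at 2.76 to 9.81 CPM, rose in H929, by 1.39 ± 0.41 (SE, adjusted p = 0.0447).

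Of 7 chaperones of the mitochondrion 5 fell in each line, against 7.34% of all genes in OPM2 and 5.67% in H929, with medians of -0.67 and -0.66. TRAP1, the mitochondrial HSP90, changed by -0.78 ± 0.10 (SE, adjusted p = 0.000532) in OPM2 and -0.66 ± 0.10 (SE, adjusted p = 0.00204) in H929. HSPD1 (HSP60) changed by -0.67 ± 0.18 (SE, adjusted p = 0.0245) and -0.91 ± 0.18 (SE, adjusted p = 0.00734). GRPEL1, HSPE1 and DNAJA3 were among the others: GRPEL1 changed by -0.68 ± 0.13 (SE, adjusted p = 0.00469) in OPM2 and -0.78 ± 0.13 (SE, adjusted p = 0.00261) in H929 and DNAJA3 by -0.75 ± 0.14 (SE, adjusted p = 0.00524) and -0.54 ± 0.14 (SE, adjusted p = 0.0295). HSPE1 was called in H929, at -0.87 ± 0.24 (SE, adjusted p = 0.0322), with -0.42 ± 0.24 (SE, adjusted p = 0.24) in OPM2. HSPA9, the mitochondrial HSP70, was not called, at -0.23 ± 0.26 (SE, adjusted p = 0.561) and -0.57 ± 0.26 (SE, adjusted p = 0.179). Without OPM2 dBRD9-A replicate 2 the mitochondrial falls were 7 of 7 in OPM2 and 6 of 7 in H929, HSPA9 among them in both, against 15.6% and 16.5% of all genes. Chaperones of the endoplasmic reticulum fell in OPM2, 5 of 10 against 7.34% of all genes, with a median of -0.35. In H929 0 of 10 were called, against 13% of all genes called in either direction, with a median of -0.22. Of these 10, 3 were lower in H929 at an unadjusted p under 0.05 in edgeR, DESeq2 called 0 and limma-voom 6, against 18.6% of all genes lower. Without OPM2 dBRD9-A replicate 2 the falls were 8 of 10 and 4 of 10, against the same 15.6% and 16.5%, and the difference between the lines was not tested for the list as a whole. SDF2L1 and PDIA4 changed by -1.03 ± 0.23 (SE, adjusted p = 0.0101) and -0.77 ± 0.17 (SE, adjusted p = 0.00907) in OPM2. HSPA5 (BiP) changed by -0.38 ± 0.09 (SE, adjusted p = 0.0159) in OPM2 and -0.16 ± 0.09 (SE, adjusted p = 0.292) in H929, and HSP90B1 (GRP94) by -0.31 ± 0.14 (SE, adjusted p = 0.146) and -0.35 ± 0.14 (SE, adjusted p = 0.123).

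Among 14 other targets of HSF1, of which 12 were tested, 1 rose and 1 fell in OPM2, near the 10.1% and 7.34% of all genes. In H929 2 rose and 3 fell, against 7.33% and 5.67% of all genes. The medians were -0.14 and -0.24. When OPM2 dBRD9-A replicate 2 was left out, 1 rose and 4 fell of 12 in OPM2, against 16.1% and 15.6% of all genes. In that fit 2 rose and 5 fell in H929, against 19.2% and 16.5%. SERPINH1, a collagen chaperone, was at 19.6, 19.3 and 15 CPM with DMSO and 55, 48.1 and 41.7 CPM with dBRD9-A in OPM2. In H929 SERPINH1 was at 8.16, 6.44 and 7.3 CPM with DMSO and 16.1, 17.9 and 14.1 CPM with dBRD9-A, and it rose in both lines, by 1.43 ± 0.16 (SE, adjusted p = 0.000186) and 1.13 ± 0.16 (SE, adjusted p = 0.00118), without overlap. ATF3 rose in H929, by 0.76 ± 0.14 (SE, adjusted p = 0.00428). The falls on this list with all 12 libraries were HSPD1 in both lines and HSPE1 and MRPL18 in H929. HSPD1 and HSPE1 are also counted with the mitochondrial chaperones. MRPL18, a mitochondrial ribosomal protein, changed by -0.49 ± 0.13 (SE, adjusted p = 0.032) in H929. MYC changed by -1.33 ± 0.26 (SE, adjusted p = 0.00544) in OPM2 and -1.72 ± 0.26 (SE, adjusted p = 0.00183) in H929, and whether this bears on the chaperone genes was not tested.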

How the data were processed

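Per the labels' protocols, column-purified RNA went into Illumina's stranded mRNA library kit. Per the submitters' processing notes, reads were handled with STAR and featureCounts, with hg19 and GRCh37 as builds; roles, versions and strand setting are not given in the sources used here. The deposited counts are whole reads per RefSeq transcript, for 51780 transcripts of 25680 symbols, not normalised. The deposited FPKM values served only to recover transcript length, and the deposited TPM values were only checked against count over length.

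Each symbol was represented by the entry with the highest mean count. Genes were filtered with filterByExpr by group, scaled by TMM and tested in R 4.3.3 with edgeR 4.0.16 (quasi-likelihood, a mean per group over all 12 libraries, with 8 residual degrees of freedom). Benjamini-Hochberg adjustment ran over the 16408 genes tested, at a threshold of 0.05. The lines in DMSO also needed a log2 fold change of 1 or more in size. SE values are the fold change over the root of the F statistic. HSPA1A and PFDN6 did not pass the filter. The same steps were also run on simulated counts, drawn without a GC trend or an outlying library. That run therefore does not show how the calls behave with a library such as OPM2 dBRD9-A replicate 2. Alternatives used DESeq2 1.42.0 and limma 3.58.1. The members and all gene lists were chosen with earlier results of these data known. All 40 members could be named. From each other kind of list the rule named, per treatment, the 4 called genes with the largest absolute change, plus HSP90B1, HSPA5, HSPD1, HSPA9, TRAP1, BRD9 and MYC. The text takes its other genes from these, except MRPL18, the plasma cell markers and the markers CD3E, CD3D, CD3G, CD8A, KRT18 and HBB, which were named after their values were seen.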

Additional observations from a re-analysis of the deposited data

How the results depend on the processing

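The number of these chaperone genes called differed between settings, as did the share of all genes called, given here in parentheses. In OPM2 (11 called, 17.4%) limma-voom with a weight per library gave 26 (44.1%), OPM2 libraries alone 2 (5.82%), removal of the GC trend 17 (25.9%) and each library left out in turn 3 to 24. In H929 (10 called, 13%) limma-voom gave 24 (36%), H929 libraries alone 22 (32.3%), removal of the GC trend 16 (22%) and each library left out 2 to 24. The difference of the responses (0 called, 0.579%) gave 1 with DESeq2 (2.27%), 2 with limma-voom (5.38%), 1 with the GC trend removed (1.23%) and 0 to 2 with a library left out (0.21% to 3.04%). The count for the lines in DMSO (6 called, 36.3%) stayed within 5 to 7. The median log2 fold change over the 38 genes in OPM2 (-0.11) was -0.36 without OPM2 dBRD9-A replicate 2 and -0.26 with the GC trend removed. For the other chaperone network genes, OPM2 (10 called) gave 16 with DESeq2 (24.9%), 32 with limma-voom, 3 with OPM2 alone, 22 with the GC trend removed and 4 to 27 with a library left out. H929 (6 called) gave 21 with limma-voom, 3 with no low-count filter (8.16%), 19 with H929 alone, 15 with the GC trend removed and 2 to 20 with a library left out. With a library left out, the share of all genes called was 8.28% to 31.7% in OPM2 and 4.86% to 35.7% in H929. The remaining shares are as above. The cause of these shifts was not tested.

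Deviations of same-numbered libraries correlated at 0.32, -0.02 and -0.15 in OPM2 and at -0.16, -0.14 and -0.10 in H929. They were taken within groups of 3 and followed GC content in several libraries. These correlations therefore cannot decide whether libraries were paired by number. In OPM2 the highest correlation of any pair was the 0.32 between DMSO replicate 1 and dBRD9-A replicate 1. In H929 the highest correlations were between different numbers. DMSO replicate 1 correlated with dBRD9-A replicate 2 at 0.53, DMSO replicate 2 with dBRD9-A replicate 3 at 0.71 and DMSO replicate 3 with dBRD9-A replicate 1 at 0.67. The main fit used no pairing, a block by replicate number does not follow this order, and its cause was not tested. With the replicate number as a block, the calls of HSPB1 and DNAJB1 in OPM2 and of CCT3, CCT4 and HSPA14 in H929 were lost (adjusted p of 0.0616, 0.0538, 0.0502, 0.0527 and 0.0557). Then 9 of 38 genes were called in OPM2 (12.9% of all genes), 7 in H929 (9.7%) and 0 for the difference of the responses (0.201%). Of 57 other network genes 7 and 3 were called, near the share of all genes in OPM2 and below it in H929. The block with the length trend removed gave 7 in OPM2 (14.4%). With the GC trend removed the block gave 18 in each line (23.1% in OPM2 and 20% in H929) and 21 and 14 other network genes.

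Of single genes, HSPA4 in OPM2 (0.04) ranged from -0.34 to 0.21 with a library left out, turning to -0.34 without OPM2 dBRD9-A replicate 2 (adjusted p = 0.00501) and to -0.30 in limma-voom (adjusted p = 0.00248). FKBP4 and BAG1 were called in 25 of 25 alternatives in both lines. Depth limits HSPA1B, BAG2 and DNAJB4 in H929 most, since they had the fewest counts.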
